A study of Homo sapiens with 30 samples.

Results

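RNA-seq was performed on 5637 cells, a human bladder carcinoma cell line, and the comparison described here is that of WT2 with WT1, the control groups that accompany the RBPMS knockouts KO2 and KO1. All 6 libraries with a WT label in the knockout experiment were taken, 3 per group, of 30 libraries in the whole series, and every gene of their count table was examined. The cells of both groups carry the genotype label WT. The same controls appear as sgCtrl in the figures of the study and as wild-type cells in its discussion, so whether they received a control sgRNA is not settled. The knockout populations were expanded from single clones, which is not stated for the controls. No source used here tells whether WT1 and WT2 were separate lines, separate passages or separate days of culture, or whether the 3 libraries of a group came from separate cultures. Culture, extraction and group therefore cannot be told apart, and the p-values measure the spread between these libraries only.

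Several gene programs respond quickly to the state of a culture. Chaperones are induced by heat and protein damage through the transcription factor HSF1, YAP and TAZ with TEAD factors drive genes such as CCN1 and CCN2 in spread cells, and Notch signaling between neighboring cells induces HES1, HEY1 and NRARP. The urothelium, the epithelium from which bladder cancer arises, is ordered from basal cells with KRT5, KRT17 and TP63 to luminal cells with uroplakins and KRT20.

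The libraries held 50736983 to 67061565 counts in WT1 and 54644347 to 69723937 counts in WT2. Genes of mitochondrial DNA took 7.35% to 7.94% of the counts in WT1 and 7.38% to 7.84% in WT2, and the ranges of the cytosolic ribosomal protein genes overlapped as well (4.11% to 4.53% and 4.18% to 4.74%). Over 14332 genes, the median absolute log2 difference between a WT1 and a WT2 library was 0.105 to 0.129. Pairs within WT1 gave 0.0923 to 0.114 and pairs within WT2 gave 0.0915 to 0.0979, while KO1 and KO2 libraries differed from each other by 0.205 to 0.253. RBPMS, the RNA-binding protein targeted in the knockouts, was measured at 2270.2, 2460.1 and 2334 in WT1, 2574, 2495 and 2469.7 in WT2, 881, 887 and 834 in KO1 and 1206, 1104 and 1243 in KO2, in normalized counts on the scale of all 12 libraries. All 6 WT libraries lay above all 6 KO libraries.

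**Figure D1:**
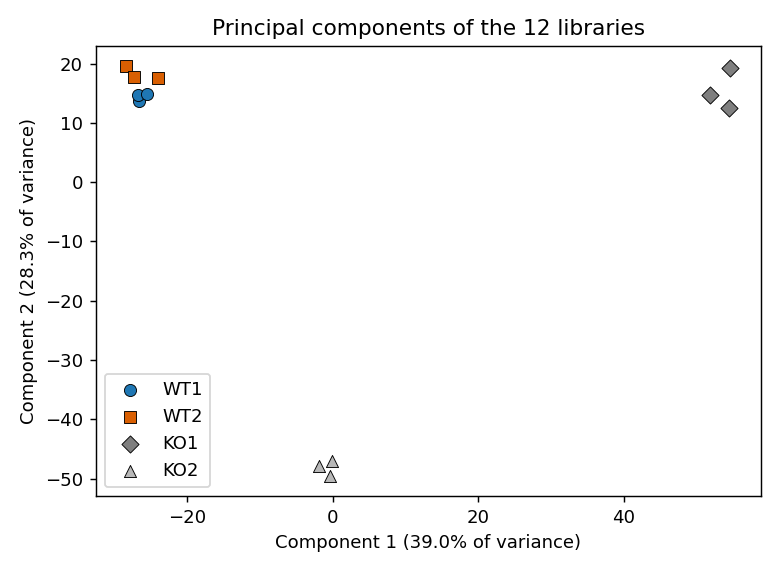
Principal components of the 12 libraries of the knockout experiment, with component 1 (39.0% of variance) on the x axis and component 2 (28.3%) on the y axis, 1 point per library. The 6 WT libraries lie together in the upper left, with the WT1 libraries at 13.7 to 14.8 and the WT2 libraries at 17.6 to 19.5 on component 2, and KO1 and KO2 lie apart from them and from each other.

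Of 18335 genes tested between WT2 and WT1, 226 (1.23%) passed an adjusted p-value of 0.05 in edgeR's quasi-likelihood test and are referred to as called. Among them 106 (0.578% of genes tested) were higher in WT2 and 120 (0.654%) were lower. Most of the called differences were small. The median absolute log2 fold change of the called genes was 0.345, and 174 of the 226 were under 0.5, where a log2 fold change of 1 is a doubling. Only 16 genes (0.0873%) were called with a log2 fold change of 1 or more in either direction, 10 of them higher (0.0545%) and 6 lower (0.0327%). The groups did not overlap for 3609 genes (19.7%), and all 226 called genes were among them. The number of calls fell with any 1 library left out, which also leaves fewer libraries for the test. It fell to 133 without WT1 replicate 1, 84 without WT1 replicate 2 and 92 without WT1 replicate 3. It fell to 91 without WT2 replicate 1, 71 without WT2 replicate 2 and 117 without WT2 replicate 3.

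The size of difference that could be called depended on the level of the gene. For the 2919 genes whose mean reached 5000 normalized counts (counts scaled to a common library size), the median standard error of the log2 fold change was 0.046, 77 genes were called, and the smallest called difference was 0.156. For the 2404 genes with 50 to 200 normalized counts the median standard error was 0.277, 8 genes were called, and none of them differed by less than 0.866. A difference of 0.2 in a gene of the lower class was thus smaller than the median standard error, and none that small was called with these libraries.

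**Figure D2:**
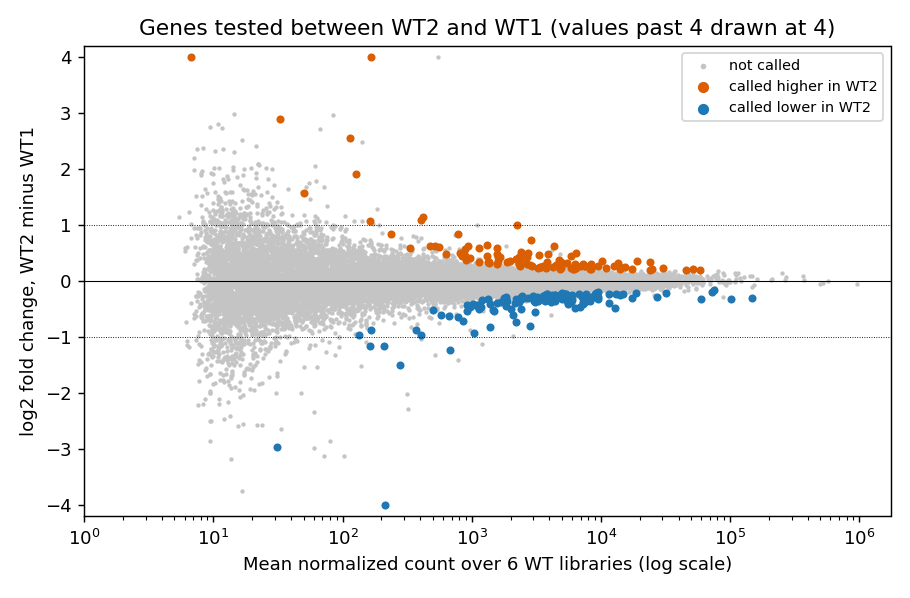
Log2 fold change of WT2 against WT1 on the y axis against the mean normalized count over the 6 WT libraries on a log x axis, 1 point per gene tested, with values past 4 drawn at 4 and dotted lines at 1 and -1. Called genes (226, orange when higher and blue when lower in WT2) hug the center line at high counts, where the smallest called difference was 0.156, and lie far from it at low counts.

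Of the 16 called genes that differed by 1 or more on the log2 scale, 9 overlapped another tested gene on the same strand in the GENCODE annotation of GRCh38, against 16.8% of all genes tested and 13.3% of the called genes. When the normalized counts of each such gene and its overlapping genes were added, the log2 ratio of WT2 to WT1 was between -0.12 and 0.16 for all 9. Where the called gene is a small part of its locus, the sum could hardly move and cannot tell whether that gene changed. BCL2L2-PABPN1, for example, had means of 7.5 in WT1 and 58.3 in WT2, in a locus that summed to 10895.5 and 11320. ISY1-RAB43, a readthrough gene on chromosome 3 (129087575 to 129161036) that joins the splicing factor gene ISY1 to the GTPase gene RAB43, was measured at 706, 292 and 284 normalized counts in the WT1 libraries and 0, 0 and 0 in the WT2 libraries. It was at least 142-fold lower in WT2 against a floor of 3 counts per library. ISY1 itself was called higher (log2 fold change 0.29 ± 0.058 (SE), adjusted p = 0.032), RAB43 had a log2 fold change of 0.39 (adjusted p = 0.12), and the 3 genes together gave 3970 ± 68.1 normalized counts in WT1 and 4431 ± 281 in WT2 (SD, n = 3). How reads were divided between overlapping genes was not tested.

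Sums that differed little were found at other shared positions as well. PTGES3L-AARSD1, the readthrough gene of a co-chaperone homolog and an alanyl-tRNA editing enzyme, was called higher (1.90 ± 0.26, adjusted p = 0.00355), while its locus summed to 1593 ± 103 normalized counts in WT1 and 1721 ± 39.5 in WT2. NDST2, a heparan sulfate sulfotransferase, was called lower with -0.97 while the unnamed gene ENSG00000272916 at the same position was called higher with 1.09, and their sum was at 799 ± 31.9 and 827 ± 86.1. CDC42EP2, an effector of the GTPase CDC42, was called lower (-1.15 ± 0.23, adjusted p = 0.0337), and its locus summed to 625 ± 94.8 and 629.6 ± 186. IFITM10, of the interferon-induced transmembrane family, was called higher (0.62 ± 0.092, adjusted p = 0.00699), and the log2 ratio of its summed locus was 0.053. PTGES3L-AARSD1 itself had means of only 53.4 and 201 normalized counts in WT1 and WT2. As they share positions with other tested genes, all of these genes are uncertain as changes of a single gene. CDC42EP2 also lost its call without any 1 of the 6 libraries (adjusted p up to 0.143), and NDST2 without WT1 replicate 3 or WT2 replicate 2 (up to 0.0647).

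The other 7 genes that differed by 1 or more overlapped no tested gene on their strand. CP, which encodes ceruloplasmin, a copper-carrying ferroxidase, was measured at 1317, 1567 and 1617 normalized counts in the WT1 libraries and 3090.0, 3172 and 2796 in the WT2 libraries (log2 fold change 1.01 ± 0.079 (SE), adjusted p = 0.000119). HEPHL1, another member of the same multicopper ferroxidase family, moved the other way, with 1024, 946 and 877 normalized counts in the WT1 libraries and 404, 415 and 390.0 in the WT2 libraries (log2 fold change -1.24 ± 0.10 (SE), adjusted p = 0.000119). For each of these ferroxidase genes the groups lay far apart and the libraries within a group lay close together. LRP2, which encodes the endocytic receptor megalin, rose from 262 ± 32.6 to 584 ± 42.7 normalized counts (SD, n = 3, log2 fold change 1.15 ± 0.13 (SE), adjusted p = 0.00128). AKR1C2, an aldo-keto reductase that acts on steroids, was measured at 419.9, 368 and 454 normalized counts in the WT1 libraries and 128, 158 and 153 in the WT2 libraries (log2 fold change -1.50 ± 0.16 (SE), adjusted p = 0.000719). Its near-identical neighbors AKR1C1 and AKR1C3, with which it can share reads, had log2 fold changes of -0.57 (adjusted p = 0.324) and -0.44 (adjusted p = 0.126), so that the share of each gene is uncertain. The calls of CP, HEPHL1, LRP2 and AKR1C2 held with each of the 6 libraries left out in turn.

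The remaining 3 of these genes were less secure. PACSIN1, which encodes an endocytic membrane-shaping protein, was at 27.1, 30.6 and 18.1 normalized counts in the WT1 libraries and 77.5, 64.9 and 83.0 in the WT2 libraries (log2 fold change 1.58 ± 0.34 (SE), adjusted p = 0.0488). LNCOC1, a long non-coding RNA, had a log2 fold change of 1.08 ± 0.22, adjusted p = 0.0353, and ATP6V1C2, a subunit of the vacuolar proton pump, one of -1.16 ± 0.23, adjusted p = 0.0315. The groups did not overlap for any of them. Without any 1 of the 6 libraries PACSIN1 and LNCOC1 were no longer called (adjusted p up to 0.151 and 0.168), and ATP6V1C2 kept its call only without WT2 replicate 3 (up to 0.108).

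Other large rises were those of RGS16, RHOV and NRARP. RGS16, which shortens the signal of G protein-coupled receptors, was measured at 586, 517 and 576 normalized counts in the WT1 libraries and 928, 1094 and 970.2 in the WT2 libraries (log2 fold change 0.83 ± 0.10 (SE), adjusted p = 0.00158). RHOV, an atypical small GTPase, rose from 1028 ± 17.6 to 1600.1 ± 118 (log2 fold change 0.64 ± 0.073 (SE), adjusted p = 0.00128). COLCA1 had a log2 fold change of 0.85 ± 0.16, adjusted p = 0.0226, and ELF3-AS1, the antisense RNA of the epithelial factor ELF3, one of 0.63 ± 0.11, adjusted p = 0.0166. The libraries were made with a stranded kit, but no source used here states that the counting used strand, and without it reads of ELF3 and ELF3-AS1 cannot be told apart. Of the 19 largest rises and falls with no tested gene at their position on the same strand, CP, ELF3-AS1, COLCA1, ATP6V1C2 and LNCOC1 had at least 1 on the opposite strand and 14 had none. The gene opposite to CP was HPS3, which had a log2 fold change of 0.092 (adjusted p = 0.458). RGS16, RHOV and NRARP held with every library left out, whereas COLCA1 kept its call only without WT2 replicate 3 (adjusted p up to 0.116) and ELF3-AS1 only without WT1 replicate 1 (up to 0.113).

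Among the large falls, FABP4 and ADAMTS15 stood on many counts. FABP4, a fatty acid carrier best known from fat cells and macrophages, was measured at 3793, 3376 and 3569 normalized counts in the WT1 libraries and 1909, 2044 and 2203 in the WT2 libraries (log2 fold change -0.80 ± 0.065 (SE), adjusted p = 0.000119). ADAMTS15, a protease that cleaves proteoglycans of the matrix, fell from 1359 ± 70.3 to 717 ± 88.4 (log2 fold change -0.92 ± 0.10 (SE), adjusted p = 0.000717). Both groups were tight for these genes, and both calls held with each library left out. CYP24A1, which inactivates vitamin D, had a log2 fold change of -0.96 ± 0.21, adjusted p = 0.0448, DIO2, which activates thyroid hormone, one of -0.87 ± 0.19, adjusted p = 0.045, and IL7R, the receptor of interleukin 7, one of -0.88 ± 0.17, adjusted p = 0.0269. CYP24A1 and DIO2 lost their calls without any 1 of the 6 libraries (adjusted p up to 0.153 and 0.168), and IL7R kept it only without WT1 replicate 2 (up to 0.143).

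**Figure D3:**
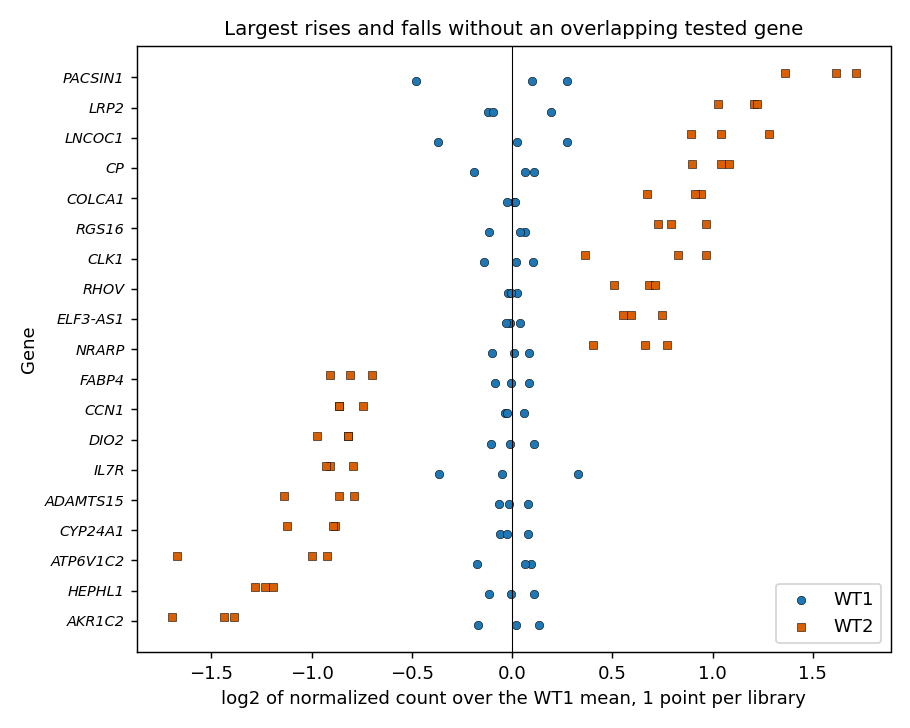
The 19 largest rises and falls that overlapped no tested gene on their strand, with the log2 of each library's normalized count over the WT1 mean on the x axis and genes on the y axis. Blue circles are the 3 WT1 libraries and orange squares the 3 WT2 libraries, and the genes run from AKR1C2 at the bottom to PACSIN1 at the top. Genes were chosen for groups that do not overlap, so the separation itself is part of the choice.

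Members of the heat shock list fell in WT2. Of 22 genes of the list, 21 were tested, all 21 had a negative log2 fold change, 7 were called lower and 0 higher, beside 0.654% of all genes called lower. The share over all genes was not matched by level, here or for the lists below. At 5000 normalized counts or more, 77 of 2919 genes were called in either direction. The median log2 fold change of the heat shock list was -0.16, beside 0.0032 over all genes tested. HSPA8, the constitutive HSP70 chaperone, was measured at 65104, 66626 and 67048 normalized counts in the WT1 libraries and 51681, 52504 and 55767 in the WT2 libraries (log2 fold change -0.31 ± 0.037 (SE), adjusted p = 0.00163). HSP90AA1, the inducible cytosolic HSP90, was at 150545, 164253 and 173563 normalized counts in the WT1 libraries and 125402, 129840.0 and 140295 in the WT2 libraries (log2 fold change -0.30 ± 0.052 (SE), adjusted p = 0.0142). No WT2 library of either gene reached the lowest WT1 library. DNAJB4, a co-chaperone of HSP70, fell from 1737 ± 152 to 1211 ± 124 (log2 fold change -0.52), the largest fall among the called members. It lost its call without WT1 replicate 3, WT2 replicate 1 or WT2 replicate 2 (adjusted p up to 0.077), while HSPA8 held with each library left out.

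The other called members were CHORDC1 at -0.38 ± 0.065, adjusted p = 0.0142, HSPH1 at -0.28 ± 0.047, adjusted p = 0.0138, DNAJB1 at -0.24 ± 0.050, adjusted p = 0.0359, and HSP90AB1 at -0.16 ± 0.031, adjusted p = 0.0334. CHORDC1 and DNAJB1 bind HSP90 and HSP70 as co-chaperones, HSPH1 exchanges the nucleotide of HSP70, and HSP90AB1 is the constitutive HSP90. Across the list the groups did not overlap for 15 of 21 genes, beside 19.7% of all genes. The classical inducible HSP70 gene HSPA1A was at 301, 404 and 285 in WT1 and 221, 208 and 237 in WT2 normalized counts, without overlap, but its log2 fold change of -0.57 did not pass (adjusted p = 0.146), and its near-identical copy HSPA1B can share its reads. HSF1 itself had a log2 fold change of -0.013 (adjusted p = 0.96). The number of heat shock genes called lower fell with any 1 library left out, being 4 without WT1 replicate 1, 3 without WT1 replicate 2 and 3 without WT1 replicate 3. It was 1 without WT2 replicate 1, 1 without WT2 replicate 2 and 5 without WT2 replicate 3, while the median of the list stayed between -0.20 and -0.15. With DESeq2 11 were called lower, and without a filter on low counts 1.

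Promoters of the called heat shock genes are shown because these genes moved together and because HSF1 binds repeats of the letters GAA and TTC. The windows run from 250 bases before to 50 bases after an annotated start (RefSeq, GRCh38.p14), are written 5′ to 3′ on the strand of the gene, and have in capitals each match to GAANNTTC or TTCNNGAA. HSPA8 (chr11:123062087-123062386, minus strand), CHORDC1 (chr11:90223000-90223299, minus strand), HSP90AA1 at 1 of 2 starts (chr14:102086995-102087294, minus strand), HSP90AB1 at 1 of 3 starts (chr6:44247693-44247992, plus strand) and DNAJB1 at 1 of 3 starts (chr19:14518348-14518647, minus strand) read as follows.
HSPA8: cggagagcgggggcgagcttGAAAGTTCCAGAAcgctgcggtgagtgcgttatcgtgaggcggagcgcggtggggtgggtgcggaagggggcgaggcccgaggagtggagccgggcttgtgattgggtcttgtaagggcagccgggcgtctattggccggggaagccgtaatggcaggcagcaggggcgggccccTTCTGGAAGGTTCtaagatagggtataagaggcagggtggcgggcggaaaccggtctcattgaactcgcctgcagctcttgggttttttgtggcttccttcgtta
CHORDC1: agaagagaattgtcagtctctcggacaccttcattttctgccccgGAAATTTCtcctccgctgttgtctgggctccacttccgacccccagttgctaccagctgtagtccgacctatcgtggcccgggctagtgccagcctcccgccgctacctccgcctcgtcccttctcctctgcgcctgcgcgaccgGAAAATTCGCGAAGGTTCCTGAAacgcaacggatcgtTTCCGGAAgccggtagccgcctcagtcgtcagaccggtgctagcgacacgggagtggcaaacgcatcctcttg
HSP90AA1: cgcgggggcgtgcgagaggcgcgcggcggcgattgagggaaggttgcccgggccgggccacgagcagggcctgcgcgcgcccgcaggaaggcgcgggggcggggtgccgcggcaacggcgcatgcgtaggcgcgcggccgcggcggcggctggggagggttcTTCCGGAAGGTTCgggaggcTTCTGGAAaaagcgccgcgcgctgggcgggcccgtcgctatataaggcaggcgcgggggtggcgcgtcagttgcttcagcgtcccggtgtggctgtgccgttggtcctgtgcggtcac
HSP90AB1: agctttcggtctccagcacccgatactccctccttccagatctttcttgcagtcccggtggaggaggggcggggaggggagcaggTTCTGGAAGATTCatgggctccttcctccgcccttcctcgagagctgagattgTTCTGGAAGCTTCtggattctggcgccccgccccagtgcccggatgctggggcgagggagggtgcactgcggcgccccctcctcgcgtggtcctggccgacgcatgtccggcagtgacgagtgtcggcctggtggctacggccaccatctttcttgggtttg
DNAJB1: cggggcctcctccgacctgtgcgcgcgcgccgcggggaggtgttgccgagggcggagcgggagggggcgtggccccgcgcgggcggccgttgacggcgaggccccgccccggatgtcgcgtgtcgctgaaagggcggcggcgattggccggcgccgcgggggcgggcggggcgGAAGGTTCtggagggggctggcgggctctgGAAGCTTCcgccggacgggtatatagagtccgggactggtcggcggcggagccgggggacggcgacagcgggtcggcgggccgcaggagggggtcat
Both strands were searched, and neighboring matches can overlap by 3 bases. Such a match was present in 4737 of 35116 annotated windows (13.5%), in 15 of 30 windows of the 19 tested heat shock genes that had one, and in 7 of 13 windows of the 7 called members. Among windows of all genes tested the share was 10.5%. Heat shock genes are known for induction through HSF1, so a high share describes the list and not the fall in WT2. HSPH1 was the only called member with no match in any window. The longer forms, GAANNTTC followed directly by NNGAA and TTCNNGAA followed directly by NNTTC, contain the shorter ones and were present in 172 of all windows (0.49%) and in 6 of the 30 windows of heat shock genes, among them those printed for HSPA8, CHORDC1, HSP90AA1 and HSP90AB1. A match describes the letters only, and binding was not measured.

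Proteasome subunit genes, which are raised with chaperones when proteins are damaged, gave 0 calls of 33 in either direction in edgeR's test. Their log2 fold changes were small, with 30 of 33 negative and a median of -0.062. At an unadjusted p under 0.05, 9 of them were lower and 0 higher, beside 13.3% of all genes at that p in either direction. Genes of the unfolded protein response of the endoplasmic reticulum gave 0 calls of 21, with a median of -0.046. At the same unadjusted p, 6 of the 21 passed, and all 6 were lower.

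Of the target genes of YAP and TEAD, 7 of 22 were called lower and 0 higher, beside 0.654% of all genes called lower, with a median log2 fold change of -0.14. CCN1, a matrix-associated signaling protein, was measured at 1832, 1721 and 1727 normalized counts in the WT1 libraries and 968, 969 and 1051 in the WT2 libraries (log2 fold change -0.82 ± 0.068 (SE), adjusted p = 0.000132), which made it the most strongly changed member. TGFB2, a ligand of the TGF-beta family, was at 2496, 2169 and 2413 in WT1 and 1700.4, 1611 and 1680.1 in WT2 normalized counts (log2 fold change -0.50 ± 0.065 (SE), adjusted p = 0.00253). In both genes all WT2 libraries lay below all WT1 libraries. AJUBA and LATS2, which act on the Hippo kinase cascade that restrains YAP, had log2 fold changes of -0.37 ± 0.056, adjusted p = 0.00821, and -0.33 ± 0.071, adjusted p = 0.0461. F3, the tissue factor that starts coagulation, had -0.37 ± 0.060, adjusted p = 0.0112, AMOTL2, a junction protein that binds YAP, had -0.31 ± 0.066, adjusted p = 0.0429, and NUAK2, a kinase, had -0.41 ± 0.078, adjusted p = 0.0255.

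The classical targets CCN2 and ANKRD1 had log2 fold changes of -0.39 ± 0.10, adjusted p = 0.0913, and -0.63 ± 0.16, adjusted p = 0.0866, without overlap between the groups but past the threshold in neither. The regulators themselves were not called, with 0.066 for YAP1, 0.043 for WWTR1 (TAZ), -0.037 for TEAD1 and -0.065 for TEAD4. The groups did not overlap for 12 of the 22 genes, beside 19.7% of all genes. CCN1 and TGFB2 held with each library left out. The count of 7 became 4 without WT1 replicate 1, 4 without WT1 replicate 2, 3 without WT2 replicate 2 and 4 without WT2 replicate 3, and 4 without a filter on low counts. The core TEAD motif GGAATG, searched on both strands, was present in 11 of 20 annotated promoter windows of the 16 tested members with a window, beside 4928 of 35116 windows overall (14%). CCN1 had no window. The list was made of TEAD targets, so its share describes the list and not the fall in WT2. Over all genes called lower 16.5% of windows had the motif, beside 6.19% of those called higher and 11.6% of those tested. Binding was not measured.

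Some secreted inflammatory signals fell. Of 33 tested NF-kappaB target and cytokine genes, 4 were called lower and 1 higher, beside 0.654% and 0.578% of all genes. IL1B, the main secreted interleukin 1, was at 1879, 1587 and 1859 normalized counts in the WT1 libraries and 1095, 1256 and 1316 in the WT2 libraries (log2 fold change -0.54 ± 0.087 (SE), adjusted p = 0.0112), and IL1A, its relative held in epithelial cells, was at 6144, 6829.8 and 6759.6 in WT1 and 5046, 4987 and 5249 in WT2 (log2 fold change -0.37 ± 0.051 (SE), adjusted p = 0.00432). CXCL8, which attracts neutrophils, had a log2 fold change of -0.48 ± 0.089, adjusted p = 0.023, and IL32 one of -0.53 ± 0.085, adjusted p = 0.0114. TNFAIP2, the member called higher, had a small difference at a high level, from 42059.5 ± 2137 to 48525 ± 1027 normalized counts (log2 fold change 0.21 ± 0.041 (SE), adjusted p = 0.0327). No subunit or inhibitor of the factor itself was called, with 0.034 for NFKB1, 0.089 for RELB and 0.12 for NFKBIA, and the median of the list was -0.011. The number called lower was 2 without WT1 replicate 2 or WT1 replicate 3 and 1 without WT2 replicate 1 or WT2 replicate 2. IL1A held with each library left out. IL1B lost its call without WT1 replicate 1, WT1 replicate 3, WT2 replicate 1 or WT2 replicate 2 (adjusted p up to 0.0583), and TNFAIP2 kept its call only without WT1 replicate 1 (up to 0.168).

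EGF receptors and their ligands, a list added after the values were seen, gave 2 calls of 13, both lower, beside 0.654% of all genes called lower. EREG, which encodes epiregulin, was measured at 2949.7, 2608 and 2667 normalized counts in the WT1 libraries and 1730.4, 1599 and 1622 in the WT2 libraries (log2 fold change -0.73 ± 0.064 (SE), adjusted p = 0.000159), and AREG, which encodes amphiregulin, at 1634, 1528 and 1617 in WT1 and 1134, 1267 and 1193 in WT2 (log2 fold change -0.41 ± 0.069 (SE), adjusted p = 0.0128). EPGN had a log2 fold change of -0.28 ± 0.075, adjusted p = 0.115, while HBEGF and TGFA had 0.24 and -0.00059. Among the receptors EGFR had -0.14 (adjusted p = 0.206) and ERBB2 0.065. The list count was 1 without WT1 replicate 1, WT1 replicate 3, WT2 replicate 1 or WT2 replicate 3.

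Immediate early genes gave 2 calls of 21, both lower, beside 0.654% of all genes called lower. JUN, a subunit of the factor AP-1, was measured at 4181, 4189 and 3959 normalized counts in the WT1 libraries and 3234, 3139 and 3310.1 in the WT2 libraries (log2 fold change -0.35 ± 0.049 (SE), adjusted p = 0.00487), and KLF6, a zinc finger factor, had a log2 fold change of -0.31 ± 0.051, adjusted p = 0.0124. The most labile members scattered widely within a group, as EGR1 did with 2193, 3174 and 2906 in WT1 and 1405, 1459 and 3783 in WT2 normalized counts. JUNB had a positive log2 fold change of 0.21 without a call (adjusted p = 0.0685). KLF6 lost its call without WT2 replicate 1 or WT2 replicate 2 (adjusted p up to 0.0697).

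The Notch targets HES1, NRARP and HEY1 rose. In a Notch list of 36 tested genes that was also added after the values were seen, these 3 were called higher and 0 were called lower, beside 0.578% of all genes called higher. HES1, a transcriptional repressor, was measured at 1997, 1820.4 and 2127 normalized counts in the WT1 libraries and 2918, 3124 and 2488 in the WT2 libraries (log2 fold change 0.52 ± 0.083 (SE), adjusted p = 0.0109). NRARP, a feedback inhibitor of the Notch complex, was at 3446, 3633 and 3200.5 normalized counts in the WT1 libraries and 5429, 5847 and 4526 in the WT2 libraries (log2 fold change 0.62 ± 0.082 (SE), adjusted p = 0.00329), and HEY1, a repressor related to HES1, had a log2 fold change of 0.60 ± 0.093, adjusted p = 0.00889. WT2 lay above WT1 without overlap for these 3 genes. Other members of the HES and HEY family were not called, with log2 fold changes of 0.067 for HES4 and 0.27 for HES6 (adjusted p = 0.797 and 0.391). The receptors NOTCH1, NOTCH2 and NOTCH3 had log2 fold changes of -0.068, 0.030 and -0.0032, the ligands JAG1 and DLL1 had -0.17 (adjusted p = 0.171) and -0.31 (adjusted p = 0.101), and the DNA-binding partner RBPJ had -0.052. The median of the list was 0.0067, and 14 of the 36 values were negative. Without WT2 replicate 2 only 1 of the 3 was called. The letters GTGGGAA, which the RBPJ protein binds, were searched on both strands and were present in 2194 of 35116 promoter windows (6.25%) and in 5 of 36 windows of the Notch list. Besides HES1, these belonged to HES4, HEYL, RBPJ and SPEN, none of which was called, and the window of NRARP had 0 matches.

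Keratins changed in both directions. Of 19 tested keratin genes 2 were called higher and 2 lower, beside 1.23% of all genes called in either direction, and both lower ones belong to the basal urothelial list as well. KRT13, a keratin of intermediate urothelial layers and of mucosa, was measured at 4801, 4966 and 5044 normalized counts in the WT1 libraries and 6451, 6884 and 6896 in the WT2 libraries (log2 fold change 0.45 ± 0.046 (SE), adjusted p = 0.000717). KRT15, of basal epithelial cells, had a log2 fold change of 0.34 ± 0.073, adjusted p = 0.0461. KRT17, which marks basal and wounded epithelium, was at 19767, 18988 and 18687 normalized counts in the WT1 libraries and 15454, 16406 and 14571 in the WT2 libraries (log2 fold change -0.31 ± 0.047 (SE), adjusted p = 0.00821), and KRT6A, induced in wounded and proliferating epithelium, had -0.32 ± 0.053, adjusted p = 0.0127. KRT13 and KRT17 held with each library left out. KRT15 kept its call only without WT2 replicate 1 (adjusted p up to 0.208), and KRT6A lost it without WT1 replicate 1, WT1 replicate 2, WT2 replicate 1 or WT2 replicate 3 (up to 0.0773).

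Of 20 tested basal urothelial genes 17 had a negative log2 fold change, with a median of -0.11, KRT17 and KRT6A among them. KRT5 had -0.11 (adjusted p = 0.171) and TP63, the master factor of basal cells, -0.028 (adjusted p = 0.81). Luminal urothelial genes gave 0 calls of 18 in edgeR's test, and 2 of them had an unadjusted p under 0.05.

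Among epithelial junction and identity genes 1 of 27 was called, beside 1.23% of all genes called in either direction. It was ELF3, an epithelial transcription factor, at 5358, 5216 and 5396 normalized counts in the WT1 libraries and 7404, 7525 and 7686 in the WT2 libraries (log2 fold change 0.50 ± 0.042 (SE), adjusted p = 0.000132). Among mesenchymal genes 2 of 20 were called in opposite directions, beside the same share of all genes. SNAI2, a repressor of epithelial genes, was higher at 3428, 3239 and 3162 in WT1 and 4695, 4499.9 and 4464 in WT2 normalized counts (log2 fold change 0.48 ± 0.050 (SE), adjusted p = 0.000719), and FN1, which encodes fibronectin, was lower at 118284, 114627 and 108572 in WT1 and 97149, 89722 and 86160.0 in WT2 (log2 fold change -0.32 ± 0.046 (SE), adjusted p = 0.00543). These 3 calls held with each library left out. CDH1 (E-cadherin) had a log2 fold change of 0.056 ± 0.037, adjusted p = 0.558, and VIM (vimentin) one of 0.012 ± 0.16, adjusted p = 0.987. CDH2 (N-cadherin) had -0.20 ± 0.050, adjusted p = 0.0835, and passed with DESeq2 (adjusted p = 0.00785) and with all 12 libraries in the fit (0.0482).

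In the SR and hnRNP splicing factor list, which was taken by symbol and includes pseudogenes, 2 of 47 tested genes were called higher and 0 lower, beside 0.578% of all genes called higher, and the median was 0.072. SRSF6 was at 23271, 22663 and 23351 in WT1 and 27802, 26674 and 26386 in WT2 normalized counts (log2 fold change 0.22 ± 0.037 (SE), adjusted p = 0.0124) and SRSF5 at 13915, 14112 and 14131 in WT1 and 17540.3, 16767 and 15710.0 in WT2 (log2 fold change 0.25 ± 0.044 (SE), adjusted p = 0.0191). CLK1, which is in no list and is known to phosphorylate SR proteins, was measured at 2313, 1955 and 2183 normalized counts in the WT1 libraries and 3822, 4204 and 2765 in the WT2 libraries (log2 fold change 0.74 ± 0.12 (SE), adjusted p = 0.0119). The WT2 libraries lay above the WT1 libraries for CLK1, but WT2 replicate 3 stood nearer to WT1 than the other two. CIRBP, also in no list, is the cold-inducible RNA-binding protein and was at 8895, 9124 and 9028 in WT1 and 11912, 11971 and 10696 in WT2 (log2 fold change 0.35 ± 0.048 (SE), adjusted p = 0.00394). RBM3, another cold-inducible RNA-binding protein, and CLK4, a kinase like CLK1, were looked up after those values were seen and had log2 fold changes of 0.19 ± 0.054, adjusted p = 0.127, and 0.34 ± 0.079, adjusted p = 0.0631. Other genes tied to RNA were called lower, among them NKTR, a relative of SR proteins, with -0.28 ± 0.052, adjusted p = 0.0215, and AGO3, of the small RNA machinery, with -0.27 ± 0.057, adjusted p = 0.0429. CIRBP held with each library left out. CLK1 lost its call without WT1 replicate 2, WT1 replicate 3, WT2 replicate 1 or WT2 replicate 2 (adjusted p up to 0.0773), SRSF6 without WT1 replicate 2, WT2 replicate 1 or WT2 replicate 2 (up to 0.104), and SRSF5 without any library but WT2 replicate 3 (up to 0.105).

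Transporters of amino acids were among the genes called lower. SLC7A11, which imports cystine in exchange for glutamate, was measured at 3492, 3767 and 3711 normalized counts in the WT1 libraries and 2766, 2275 and 2467 in the WT2 libraries (log2 fold change -0.55 ± 0.068 (SE), adjusted p = 0.00229), and SLC7A1, which imports arginine and lysine, had a log2 fold change of -0.21 ± 0.044, adjusted p = 0.0429. They were the only calls of 24 genes of the ATF4 amino acid response, beside 0.654% of all genes called lower, and the median of that list was -0.0066. SLC7A11 is also induced by NRF2. Of 23 NRF2 antioxidant genes 1 was called, AKR1C2, which was lower, beside the same share of all genes. The values of that list were negative for 18 genes, with a median of -0.073. SLC7A11 held with each library left out, and SLC7A1 kept its call only without WT1 replicate 3 (adjusted p up to 0.197).

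Single calls were found in other lists. FST, which encodes the activin antagonist follistatin, was the only gene called of 25 TGF-beta and BMP response genes (-0.46 ± 0.080, adjusted p = 0.0142), beside 0.654% of all genes called lower. The small nucleolar RNA host gene SNHG1 had 0.21 ± 0.045, adjusted p = 0.0472, and SNHG14 had -0.31 ± 0.063, adjusted p = 0.0369. Of 465 zinc finger genes 5 were called, all higher, among them ZNF503 (0.41 ± 0.061, adjusted p = 0.00703) and ZNF703 (0.35 ± 0.055, adjusted p = 0.01), which is 1.08% of the list beside 1.23% of all genes. PCDHGA8 was the only gene called of 32 clustered protocadherin genes, a family whose members share their 3′ exons. It was lower, beside 0.654% of all genes called lower. The sum over it and its 18 overlapping genes had a log2 ratio of -0.0091. PCDHGA8 was a small part of that sum, with means of 55.0 and 6.94 in WT1 and WT2 beside 7280 and 7234. Without 1 library the adjusted p reached 0.0689 for FST, 0.168 for SNHG1, 0.177 for SNHG14 and 0.0573 for ZNF703. FST kept its call only without WT2 replicate 2 and SNHG14 only without WT1 replicate 2. SNHG1 lost it without any 1 library, and ZNF703 without WT1 replicate 2, WT1 replicate 3 or WT2 replicate 2.

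Many programs gave 0 calls in edgeR's test, and their numbers at an unadjusted p under 0.05 were read beside the 13.3% of all genes (2444 of 18335) that reached it. These were 5 of 84 cytosolic ribosomal protein genes, 3 of 13 genes of mitochondrial DNA, 4 of 79 respiratory chain genes, 0 of 45 histone genes, 2 of 25 collagen genes and 3 of 35 HOX genes. They were likewise 1 of 17 glycolysis enzymes, 4 of 24 cholesterol synthesis genes, 9 of 48 interferon-stimulated genes, 2 of 15 MHC class I genes and 7 of 34 mitosis genes. Of these, the genes of mitochondrial DNA and the cholesterol synthesis, interferon-stimulated and mitosis genes lay above that share. So did the hypoxia genes with 10 of 21, of which 4 were lower. The nucleolar ribosome assembly genes did too, with 11 of 40, of which 10 were lower. Neither the 5 kallikrein genes nor the 11 MAGE and SPANX genes that were tested held any (0 and 0). The MYC and MAX network list gave 0 calls and 1 of 12 at the unadjusted p. Among the genes the study turns on, MYC was at 8873, 8139 and 8171 in WT1 and 8787, 9316 and 8206 in WT2 normalized counts (log2 fold change 0.063 ± 0.054 (SE), adjusted p = 0.68), MAX had 0.013 ± 0.062, adjusted p = 0.96, ANKRD10 had -0.030 ± 0.041, adjusted p = 0.814, RBPMS had 0.10 ± 0.053, adjusted p = 0.474, and its paralog RBPMS2 had -0.19 ± 0.12, adjusted p = 0.553. The direction of MAX and VIM turned with single libraries left out. The median log2 fold change of a chromosome was between -0.027 (chromosome 13, 333 genes) and 0.037 (chromosome 20, 451 genes).

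The level of genes in 5637 cells was compared per length, in TPM, in which counts are divided by gene length and scaled to 1 total per library. Between 15807 and 16050 genes reached 1 TPM in a WT library, and 14137 did so in all 6. Leaving aside ribosomal protein genes and mitochondrial DNA, the highest protein-coding gene was S100A9, a calcium-binding protein known from neutrophils and stressed epithelium, at 7149.5 ± 599 TPM (SD, n = 6). TMSB10 and TMSB4X, which bind actin monomers, were at 4319 ± 168 and 3053 ± 277. FTH1, the heavy chain of the iron store ferritin, was at 3969 ± 220.0, and EEF1A1 and EEF1G, elongation factors of translation, were at 3500.3 ± 192 and 1719 ± 82.6.

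The cytoskeleton followed with ACTG1 at 2914 ± 119, ACTB at 2384 ± 133, TUBB at 2060.2 ± 44.0 and the epithelial keratin KRT19 at 1629 ± 64.5 TPM. GAPDH, a glycolytic enzyme, stood at 1895 ± 67.5, PTMA, a chromatin protein, at 1882 ± 103, LCN2, an iron-chelator-binding protein of epithelial defense, at 1689 ± 126, and S100A11 at 1567 ± 48.4. HSP90AA1 was at 1588 ± 202. Neighbors in this order, such as GAPDH and PTMA or KRT19 and HSP90AA1, differed by less than the spread over the libraries. S100A9 and HSP90AA1 were the 2 of these 15 genes that were called between the WT groups, S100A9 at 78262, 76221 and 79096 in WT1 and 64498, 68951 and 70317 in WT2 normalized counts (log2 fold change -0.20 ± 0.038 (SE), adjusted p = 0.0285). Genes such as FTH1, EEF1A1, TMSB10, ACTB and PTMA have near-identical pseudogenes, and how their reads were shared out was not tested. With the longest annotated transcript as the length, 13954 genes reached 1 TPM in all 6 libraries.

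The libraries held epithelial and urothelial markers. KRT5 was at 542 TPM, KRT7 at 494, EPCAM at 169.9, TP63 at 111 and the urothelial factor GATA3 at 55.4, as means over the 6 libraries. Of 15 such markers 11 reached 1 TPM, while the luminal markers KRT20 and UPK1A were at 0 counts in every WT library. The sum of the 15 markers was 4560 to 4911 TPM in WT1 and 4538 to 4862 TPM in WT2. Of the immune markers PTPRC and CD3E were at 0 in all 6 libraries and CD14 was at 1.84 TPM, for a sum of 1.23 to 2.26 TPM in WT1 and 1.11 to 2.51 in WT2. The endothelial markers summed to 0.513 to 0.944 TPM and 0.568 to 0.751 TPM, and among fibroblast and smooth muscle markers COL1A1 was at 17.7 TPM, with COL1A2 at 0 in 5 of the 6 libraries. In bulk samples fewer cells of a type and less RNA per cell cannot be told apart.

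The differences between the control groups were set beside those between the knockouts that they accompany, KO2 against KO1, which share no library with them. Between KO2 and KO1, 5573 of 17703 genes (31.5%) were called, 1034 of them (5.84%) with a difference of 1 or more on the log2 scale. Of the 224 genes called between the WT groups and tested in both pairs, 137 were also called between the KO groups (61.2% of the WT calls and 2.49% of the KO calls), beside 31.8% of all genes tested in both. Of these 137, 34 moved in the same direction and 103 in the opposite direction. Directions were not counted over all genes tested in both, so this split has no background beside it. The 31.8% was not matched by level, on which calls depend. The difference between the pairs was tested itself over all 12 libraries and passed for 178 of the 226 genes, beside 4474 of 19189 genes tested (23.3%). That test contains the WT difference by which the 226 were called, so its count is given as a description.

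Genes with opposite directions included several of the largest differences between the WT groups. CP was higher in WT2 by 1.01 and had a log2 fold change of -3.56 between KO2 and KO1 (adjusted p = 2.03e-09). HEPHL1, with -1.24 in WT2, had 2.38 between the KO groups (adjusted p = 4.07e-10). ELF3 had 0.50 and -0.59, EREG -0.73 and 1.03, CCN1 -0.82 and 0.93, and OLR1, the receptor of oxidized lipoprotein, -0.60 and 1.81. The KO difference was the larger one in all 6 of these genes.

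Genes with the same direction included FABP4 with -0.80 and -1.73, IRAK2, a kinase of interleukin 1 signaling, with 0.34 and 0.42, and CIRBP with 0.35 and 0.65. GDA, which deaminates guanine, had -0.42 and -0.27, ZNF503 had 0.41 and 0.68, and KITLG, the ligand of KIT, had -0.36 and -0.28. For IRAK2, GDA, ZNF503 and KITLG the 2 differences were not told apart by the test (adjusted p = 0.471, 0.24, 0.0704 and 0.644).

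**Figure D4:**
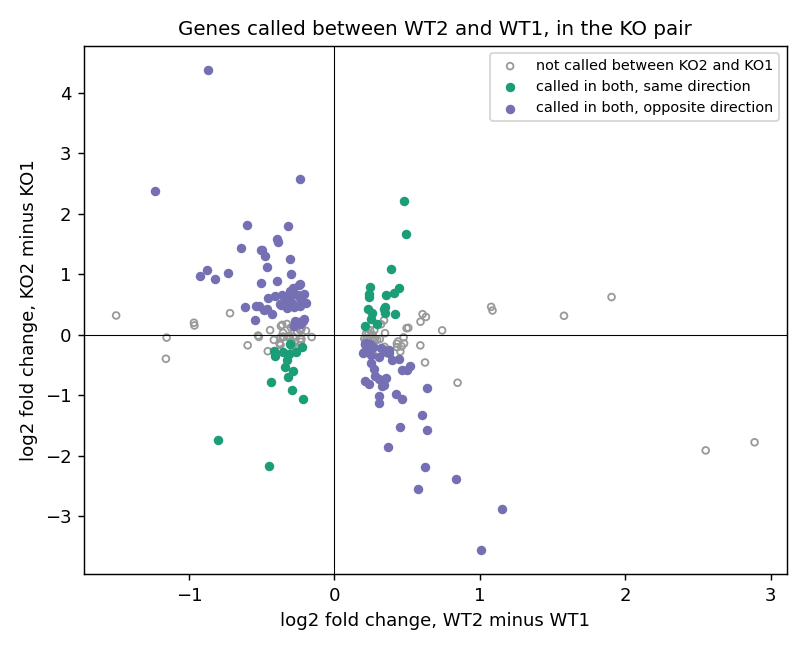
Log2 fold change of KO2 against KO1 on the y axis and of WT2 against WT1 on the x axis, 1 point per gene called between the WT groups and tested in both pairs (222 of 224 genes, 2 with an absolute WT difference over 4 not drawn). Purple points were called in both pairs in opposite directions (103 genes), green points in the same direction (34 genes), and open points were not called between KO2 and KO1.

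The lists were set beside each other for both pairs. YAP and TEAD target genes, 7 of 22 lower in WT2, were called higher in KO2 for 14 of 22 and lower for 1, with a median of 0.33. Of all genes 31.5% were called there in either direction. The test of the difference was passed by 14 of 22, beside 23.3% of all genes. As that test contains the WT values, these list counts are descriptions too. Heat shock genes, 7 of 21 lower in WT2, gave 4 higher and 4 lower between the KO groups with a median of -0.066, and 8 of 21 passed the test of the difference, beside the same shares of all genes. HSPA8 had a log2 fold change of -0.042 there (adjusted p = 0.56), and its difference between the pairs was -0.26 (adjusted p = 0.00484). KRT13 had 0.45 between the WT groups and -1.53 between the KO groups, and NRARP had 0.62 and -2.19.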

How the data were processed

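Poly(A) RNA of 5637 cells was sequenced by the authors, who trimmed reads and deposited a table of read counts per gene without normalization. The submitters' processing notes name Trimmomatic 0.36, featureCounts, Subread 1.5.1 and GRCh38, while the study's methods name HISAT2 and StringTie, so the tool behind these counts is not settled. The table lists 60612 Ensembl genes in 12 libraries, and 0 columns had no matching sample.

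Counts of the 6 WT libraries were filtered with filterByExpr (minimum count 10, minimum total 15), scaled by TMM and tested with edgeR 4.0.16 (quasi-likelihood, R 4.3.3) without covariates; p-values were adjusted over all tested genes by the Benjamini-Hochberg method, with a threshold of 0.05. Fold changes use a prior count of 0.125. KO2 against KO1 was fitted alike, and the difference of the pairs over all 12 libraries. With 3 libraries against 3, precision was limited as stated by level.

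TPM used the union of exons of GENCODE 29. Chromosome arms were not analysed here. Named genes were the 12 largest rises and falls (symbol, called, mean of at least 50 normalized counts, no overlap), a panel of 8 genes, up to 2 called genes per direction in each list, 15 genes by TPM, 6 genes each with shared and opposite direction, and markers. Other genes were named after their values were seen, including further called members of lists. The members and the lists were chosen with earlier results of these data known. Alternatives were RLE and upper-quartile scaling, DESeq2 1.42.0, other filters, all 12 libraries, a replicate block and each library left out. Leaving out readthrough genes and the overlaps with other genes on either strand were chosen after seeing the data. Some genes are not reported here.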

Additional observations from a re-analysis of the deposited data

Results flagged for a closer look

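Of 54 named genes called between WT2 and WT1, 44 had a difference that was not the same between KO2 and KO1, by edgeR's test of the difference itself over all 12 libraries (adjusted p under 0.05). Over all genes 23.3% passed. The named genes were chosen for a called WT difference, and 6 of them for the opposite direction between the KO groups, and the test contains the same values, so the count is a description of the choice and supports nothing. The values are WT2 minus WT1 less KO2 minus KO1 on the log2 scale. Positive values were found for 20 genes. Among genes also called higher in WT2 these were CP 4.57, LRP2 4.04, RGS16 3.22, NRARP 2.82, RHOV 2.22, COLCA1 1.64, ELF3-AS1 1.52, PACSIN1 1.27, IFITM10 1.08 and CLK1 0.67, and further KRT13 1.98, KRT15 1.18, ELF3 1.10, SNAI2 0.53, TNFAIP2 0.51, SRSF5 0.40, SRSF6 0.29 and ZNF703 0.33. FABP4 and KRT6A were lower in WT2 and fell more between the KO groups, which gave FABP4 0.94 and KRT6A 0.39.

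Negative values were found for 24 genes. The largest belonged to ISY1-RAB43 -12.76, whose fitted size depends on the prior count because WT2 was at 0, and to DIO2 -5.24. Ferroxidase, reductase and receptor genes gave HEPHL1 -3.61, AKR1C2 -1.81, OLR1 -2.40 and IL7R -1.94. Matrix, growth factor and cytokine genes gave FN1 -2.11, TGFB2 -1.90, ADAMTS15 -1.88, EREG -1.75, CCN1 -1.74, IL1B -1.003, FST -0.89 and IL1A -0.86. Factors and chaperones gave KLF6 -1.54, JUN -0.85, DNAJB4 -0.48 and HSPA8 -0.26. The rest were NDST2 -1.16, CDC42EP2 -1.10, SNHG14 -1.02, SLC7A11 -0.79, SLC7A1 -0.46 and CIRBP -0.29. CIRBP was higher in WT2 and rose more between the KO groups. Groups of 3 libraries are too small for a check of single outlying libraries.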

How the results depend on the processing

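The number of genes called between WT2 and WT1 was 226 with the settings used, 223 with either RLE or upper-quartile scaling, 217 with all 12 libraries in the fit, 299 among genes whose mean reached 50 normalized counts and 222 without readthrough genes. DESeq2 called 690 genes (323 higher, 367 lower), which included 222 of the 226. Without a filter on low counts 88 genes were called (43 higher, 45 lower), all among the 226, and 8 of them differed by 1 or more on the log2 scale, the number of genes tested being 31126 in place of 18335. All 226 genes kept their direction under the settings that tested them. With 1 library left out, 71 to 133 genes were called, 31 to 61 of them higher, 40 to 72 lower and 9 to 18 with a difference of 1 or more. The last count was 9 without WT2 replicate 2 and 10 without WT1 replicate 3. Of 54 named genes that were called, 30 were called with each of the 6 libraries left out, 18 were lost without the filter, 10 with all 12 libraries in the fit and 0 with DESeq2. Genes called in both pairs numbered 386 with DESeq2 (142 in the same and 244 in the opposite direction) and 51 without the filter (11 and 40). The direction turned for MAX, with -0.036 to 0.062, and for VIM, with -0.12 to 0.10, when 1 library was left out. The causes were not tested beyond the numbers of genes and libraries given.

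Same-numbered WT1 and WT2 libraries had correlations of their deviations of 0.043, 0.013 and -0.075. Those with different numbers had correlations of -0.117 to 0.109. No pairing by replicate number was thus seen, but these values cannot tell whether libraries were handled in matched sets. A replicate block called 165 genes, 154 of them among the 226, and 9 of the 54 named genes lost their call with the block. It left 5472 genes between KO2 and KO1 and 4476 for the difference of the pairs.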
